A study of Mus musculus with 2 samples.

Results

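Lyve1 Folr2 resident macrophages of neonatal mouse skin were 312 of the 27589 cells that passed the filters, with 106 of 8047 in the anti-Gr-1 library and 206 of 19542 in the isotype control library. They were selected by their own transcript counts, given as UMIs (unique molecular identifiers, 1 per captured transcript). A member had at least 0.3% of its UMIs from the complement genes C1qa, C1qb and C1qc and at least 2 UMIs of Lyve1, Folr2, Cd209f and Timd4 together. It had no UMI of the T cell genes Cd3d, Cd3e and Cd3g and fewer than 3 of the cell cycle genes Mki67 and Top2a. Levels of these 7 macrophage genes therefore describe the choice and are no finding.

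The mice were wild-type C57BL/6 and were treated with anti-Gr-1, which recognises Ly6G on neutrophils and Ly6C on inflammatory monocytes, or with an antibody of the same isotype as control. Doses were given every other day from postnatal day 4 to day 14, and the study's design states that the aim was to deplete monocytes. Live CD45+ cells, that is white blood cells of all kinds, were sorted from collagenase-digested skin at day 15 and profiled by droplet single-cell RNA sequencing of 3′ ends. Each treatment had 1 library from 4 to 7 pooled mice, so there were no replicates and no difference between treatments was tested. Intervals in parentheses are exact 95% intervals that cover counting error only, not the spread between mice or cells.

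Resident macrophages settle in a tissue and take up dying cells, debris and iron-rich material there. In many mouse tissues a subset with the hyaluronan receptor LYVE1 and the folate receptor FOLR2 lies along blood vessels and carries little MHC class II, the molecules that present antigen to CD4 T cells. TIMD4 binds phosphatidylserine on dying cells, CD209F is a C-type lectin, and C1q is the first component of the classical complement pathway. Macrophages that come from blood monocytes after birth usually carry the chemokine receptor CCR2 and more MHC class II.

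The genes of the rule lie at separate places in the genome except for the C1q cluster. On build mm10 (GENCODE M21), C1qa (ENSMUSG00000036887) is at chr4:136895917-136898803, C1qb (ENSMUSG00000036905) at chr4:136880129-136886187 and C1qc (ENSMUSG00000036896) at chr4:136889804-136893065. Lyve1 (ENSMUSG00000030787) is at chr7:110850607-110863239, Folr2 (ENSMUSG00000032725) at chr7:101839988-101857194, Cd209f (ENSMUSG00000051906) at chr8:4102787-4105835 and Timd4 (ENSMUSG00000055546) at chr11:46810800-46844332.

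Folr2 was the resident gene found in most members and Timd4 the one found mostly together with Lyve1, so the bases before their RefSeq start sites (GRCm38.p6) are shown, 250 before each start and 5′ to 3′ on the strand of the gene. Capitals mark TGCTGA, the core of the sites bound by MAF factors, and GAGGAA, the core of PU.1 sites, on either strand; MAF and PU.1 are transcription factors of macrophages. Folr2 has 2 annotated starts, the first listed lying inside the gene, at chr7:101845332-101845581 and chr7:101857191-101857440, and Timd4 has 1, at chr11:46810549-46810798.
Folr2, start inside the gene, minus strand: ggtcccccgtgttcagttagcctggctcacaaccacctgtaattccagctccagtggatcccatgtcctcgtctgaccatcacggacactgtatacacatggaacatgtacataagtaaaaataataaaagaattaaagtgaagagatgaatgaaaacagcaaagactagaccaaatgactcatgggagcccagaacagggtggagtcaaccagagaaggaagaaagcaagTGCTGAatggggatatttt
Folr2, start at the gene's end, minus strand: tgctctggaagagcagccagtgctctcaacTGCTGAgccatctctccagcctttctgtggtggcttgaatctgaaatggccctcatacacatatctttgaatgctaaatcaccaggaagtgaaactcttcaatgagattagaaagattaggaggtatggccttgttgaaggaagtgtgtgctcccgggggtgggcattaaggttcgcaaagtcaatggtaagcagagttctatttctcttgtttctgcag
Timd4, plus strand: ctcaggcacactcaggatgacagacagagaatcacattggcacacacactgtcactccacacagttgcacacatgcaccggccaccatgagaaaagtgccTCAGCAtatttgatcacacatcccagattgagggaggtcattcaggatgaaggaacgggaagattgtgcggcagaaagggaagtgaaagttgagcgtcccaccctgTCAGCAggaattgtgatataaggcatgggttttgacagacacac
TGCTGA was found once before each Folr2 start and 2 times before Timd4, and GAGGAA was not found in these windows. Over all 32851 start sites of the table, 16.1% of windows of the same length held TGCTGA and 23.3% held GAGGAA, and a match is a description of letters, not of binding.

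The members carried macrophage genes that the rule did not use, in both libraries. Csf1r, the receptor for the growth factor on which macrophages depend, had 1248 CPM (counts per 1e6 UMIs summed over a cell set) in anti-Gr-1 members and 1065 CPM in isotype control members. Mrc1, the mannose receptor, had 3217 and 3102 CPM, F13a1, a clotting factor subunit made by resident macrophages, 2733 and 2577 CPM, and Cd163, the haemoglobin scavenger receptor, 1086 and 1206 CPM. In Cd3 T cells, taken as the measure of free RNA in the droplets, Mrc1 had 6.67 CPM in the anti-Gr-1 library and 31.3 CPM in the isotype control library, and F13a1 had 2.75 and 9.75 CPM.

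Of the rule's genes, Folr2 was the most widely found. It had UMIs in 98.1% of anti-Gr-1 members and 93.7% of isotype control members, at 1026 and 851 CPM. Lyve1 was found in 46.2% (36.5 to 56.2) of anti-Gr-1 members and 42.2% (35.4 to 49.3) of isotype control members. Cd209f was found in 43.4% and 36.4% of them, and Timd4 in 34.9% and 29.6%. T cells had UMIs of Lyve1 in 0.202% of anti-Gr-1 cells and 0.212% of isotype control cells, at median depths of 6854 and 4560 UMIs, against 9702 and 6594 UMIs in members. Timd4 was not limited to macrophages: dendritic cells with Cd209a had it in 19.1% of anti-Gr-1 cells and 21.6% of isotype control cells, at 56.5 and 70.8 CPM, against 93.8 and 79.3 CPM in members.

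**Figure D1:**
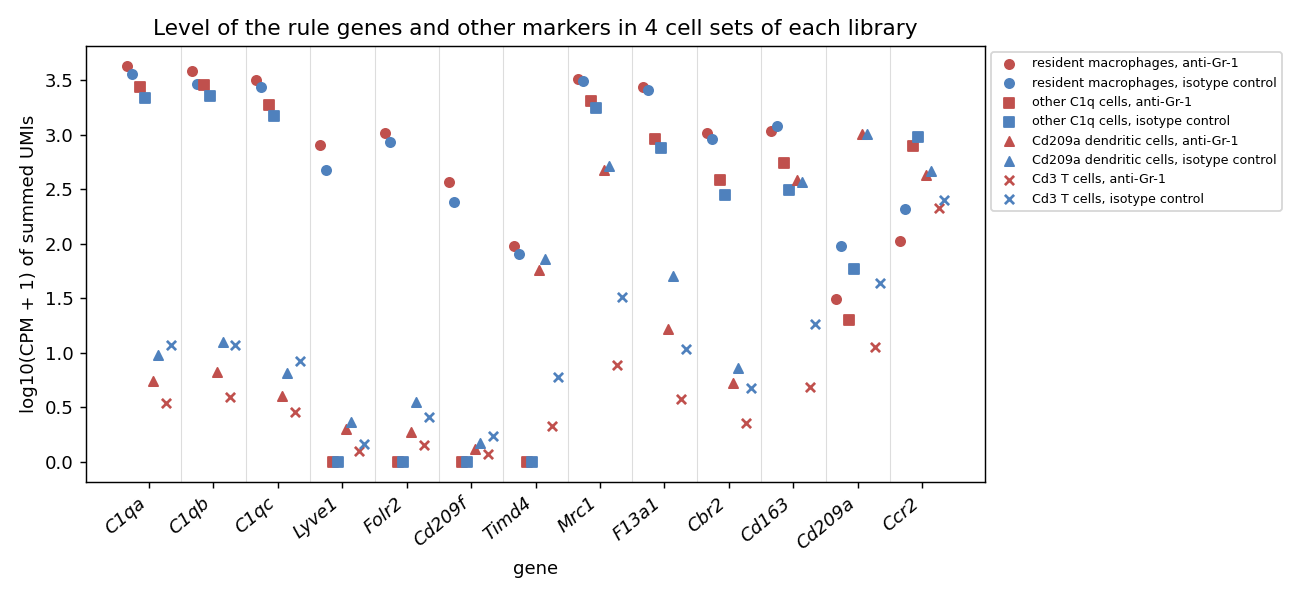
Level of each gene as log10(CPM + 1) of UMIs summed over a cell set, for resident macrophages, other C1q cells, Cd209a dendritic cells and Cd3 T cells; red points are the anti-Gr-1 library and blue points the isotype control library, 1 library each. The 4 resident genes are at 0 in the other C1q cells by the rule, and dendritic cells were chosen with a C1q share under 0.1%. Csf1r-type macrophage genes such as Mrc1 (3217 and 3102 CPM in members) stand far above their level in T cells (6.67 and 31.3 CPM).

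Members just inside the threshold were few. Exactly 2 resident UMIs were found in 11 anti-Gr-1 and 34 isotype control members, and 27 and 69 otherwise like cells with exactly 1 such UMI lay just outside. A C1q share of 0.3% to 0.4% held for 1 anti-Gr-1 and 12 isotype control members, and a share of 0.2% to 0.3% kept out 2 and 9 cells. The Cd3 filter removed more: 48 of 157 anti-Gr-1 cells with both C1q and resident genes and 170 of 380 isotype control cells had Cd3 UMIs, 33 and 107 of them exactly 1.

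Members made up 1.32% (1.08 to 1.59) of the anti-Gr-1 cells and 1.05% (0.916 to 1.21) of the isotype control cells, a ratio of 1.25 (0.979 to 1.59) whose interval includes 1. The ratio was 1.0 (0.824 to 1.22) when cells with Cd3 UMIs were counted too, and 0.976 (0.741 to 1.28) with every cell thinned to 2000 UMIs. Thinning left out shallower cells and kept 7704 of 8047 anti-Gr-1 and 14504 of 19542 isotype control cells, so depth and the set of cells differ together from the unthinned count. Cells of each sex were told apart by Xist and 4 Y-linked genes. Members were 1.66% of female anti-Gr-1 cells and 0.966% of female isotype control cells (ratio 1.72, 1.03 to 2.76), and 1.20% and 1.3% of male cells (ratio 0.920, 0.639 to 1.32). With at least 3 resident UMIs required the ratio was 1.34 (1.03 to 1.73), so whether the interval included 1 depended on how members were counted. Set against other C1q cells, members were 50% (43.1 to 56.9) of the C1q cells that passed the Cd3 and cell cycle filters under anti-Gr-1 and 39.7% (35.5 to 44.0) under isotype control, and 31.5% (25.9 to 37.4) and 26.9% (23.4 to 30.6) after thinning.

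The members were compared within each library with C1q cells that had no UMI of the 4 resident genes, 79 in the anti-Gr-1 library and 244 in the isotype control library. Since the rule split these cells on measured values, the comparison is a description. Of 6591 genes with at least 20 CPM in 1 of the 4 cell sets, 156 (2.37%) were at least 2-fold higher in members in both libraries and 136 (2.06%) at least 2-fold lower. Ednrb, C4b, Cd209g and Slc40a1 were among the higher genes in both libraries, and Mucl1, Il1b, Cxcl2, Ccr2 and all 8 measured MHC class II genes among the lower ones. Median depths were 8667 UMIs in the other anti-Gr-1 C1q cells and 3817 in the isotype control ones.

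Ednrb, the endothelin receptor type B, was the farthest apart outside the rule. It had 985 CPM in members and 26 CPM in other C1q cells of the anti-Gr-1 library, and 988 CPM and 11.5 CPM in the isotype control library. The ratio intervals were 23.8 to 64.1 and 49.9 to 161. Ednrb was higher in members in both libraries, with log2 ratios of 5.0 and 5.91, although no step of the rule used it.

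Complement genes formed a second group. C4b, complement component 4, had 249 CPM in members against 11.6 CPM in other C1q cells of the anti-Gr-1 library, and 210 against 7.99 CPM in the isotype control library. The median log2 ratio of 11 measured complement genes was 0.75 in the anti-Gr-1 library and 0.52 in the isotype control library, where the median over all measured genes was 0.08 and 0.09, and 3 of the 11 were past 2-fold higher in both.

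Of 17 measured genes of the scavenger and efferocytosis receptor list, 5 were past 2-fold higher in both libraries (Gas6, Pros1, Stab1, Cd36 and Colec12). Gas6 and Pros1 are secreted ligands, not receptors. Axl, Itgav and Itgb5 were the 3 past 2-fold lower. The list medians were 0.52 under anti-Gr-1 and 0.73 under isotype control. Among lectins, Cd209g, of the same lectin family as Cd209f, had 128 against 4.33 CPM under anti-Gr-1, and 116 UMIs against 0 in the isotype control library. Close family members such as Cd209f and Cd209g can share reads, so their split is uncertain. Fcna, a ficolin that binds microbial sugars, had 130 against 5.78 CPM and 104 against 3.55 CPM. Colec12, a scavenger collectin, had 204 against 26 CPM and 175 against 27.5 CPM. Stab1, a scavenger receptor for modified lipoproteins and SPARC, had 700 against 234 CPM and 485 against 159 CPM.

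Iron handling leaned the same way, with 5 of 15 listed genes past 2-fold higher in both libraries, none lower, and medians of 0.68 and 0.84. Slc40a1, ferroportin, the only known iron exporter of mammalian cells, had 72.2 against 2.89 CPM in the anti-Gr-1 library and 56.5 against 4.44 CPM in the isotype control library. Tfrc, the transferrin receptor for iron uptake, had 173 against 47.7 CPM and 428 against 90.5 CPM. Ltc4s, which makes the lipid mediator leukotriene C4, had 215 against 11.6 CPM and 161 against 16 CPM. Cd38, an NAD-degrading surface enzyme, had 81.6 against 2.89 CPM and 67.9 against 3.55 CPM, and Rcn3, Gypc and Fgfr1 were also among the 12 highest genes.

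Mucl1, a small mucin-like protein gene, was almost confined to the other C1q cells among these 2 sets. Members had 1.88 CPM (2 UMIs) in the anti-Gr-1 library and 4.71 CPM (7 UMIs) in the isotype control library, against 1489 and 258 CPM in other C1q cells. The chemokine genes Ccl3, Ccl4 and Cxcl2 were lower in members: Cxcl2, which attracts neutrophils, had 489 against 3992 CPM and 962 against 4673 CPM. Il1b, the cytokine interleukin-1 beta, had 66.6 against 725 CPM and 303 against 1151 CPM. Ccr2, the receptor that brings monocytes into tissue, had 104 against 795 CPM and 206 against 944 CPM, and Cx3cr1, the fractalkine receptor, 45.9 against 324 CPM and 51.8 against 246 CPM. H2-M2, Ear2, Sowahc, Ptgs2 and Lyz1 were the rest of the 12 lowest.

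All 8 measured MHC class II genes were at least 2-fold lower in members in both libraries, with medians of -1.90 under anti-Gr-1 and -1.42 under isotype control. H2-Ab1, the beta chain of I-A, had 957 against 3447 CPM and 1811 against 4726 CPM. Of the 15 measured genes of the interleukin-1 and NF-kB list, 8 were past 2-fold lower in both and none higher. Of the 26 measured genes of the resident macrophage identity list, 15 were past 2-fold higher in both and none lower. That list was chosen with such macrophages in mind.

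**Figure D2:**
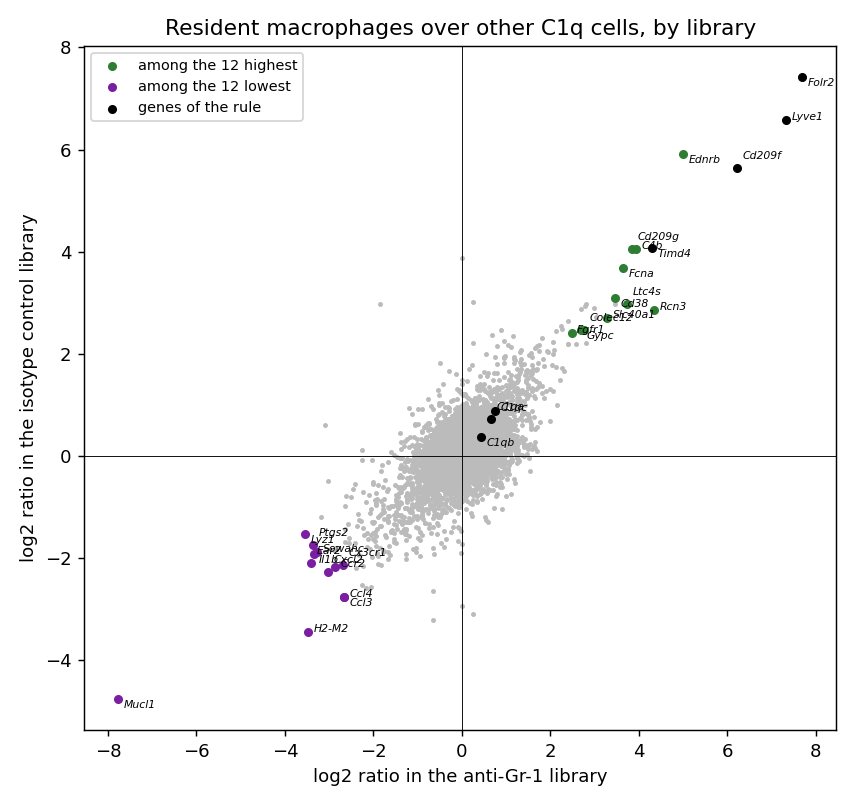
Log2 ratio of members over other C1q cells for each of 6591 measured genes (grey), in the anti-Gr-1 library on the x axis and the isotype control library on the y axis, with a pseudocount of 5 CPM. Green and purple mark genes among the 12 highest and 12 lowest outside the rule; Ednrb, at 5.0 and 5.91, and Mucl1, at -7.76 and -4.76, lie at the ends, and the 7 genes of the rule are in black.

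The members were not uniform. Only 1 of the 4 resident genes was found in 33.0% of anti-Gr-1 and 35.9% of isotype control members, and all 4 in 15.1% and 10.2%. Folr2 was the single gene found in 32.1% and 30.1% of members. Lyve1 and Timd4 went together: Lyve1 was found in 32 of 37 anti-Gr-1 members with Timd4 (86.5%) and 17 of 69 without it (24.6%), and in 43 of 61 isotype control members with Timd4 (70.5%) and 44 of 145 without it (30.3%). With cells thinned to 2000 UMIs the shares were 64.3% and 33.3% under anti-Gr-1 and 55.6% and 31.0% under isotype control. Finding both genes also depends on depth, which was 10247 and 9195 median UMIs in anti-Gr-1 members with and without Timd4, and 7382 and 6308 in isotype control ones.

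Members with Lyve1 UMIs, 49 under anti-Gr-1 and 87 under isotype control, were compared with those without, 57 and 119. Their median depths were close, at 10080 and 9582 UMIs under anti-Gr-1 and 6517 and 6728 under isotype control. Of 6798 measured genes, 52 (0.765%) were at least 2-fold higher with Lyve1 in both libraries and 119 (1.75%) at least 2-fold lower. The 52 were 17.7% of those past 2-fold higher under anti-Gr-1 and 28.7% of those under isotype control. The 119 were 24.6% and 49.2% of those lower. This grouping was chosen after the values were seen.

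Ltc4s led the genes that were higher with Lyve1. It had 397 CPM with and 35.4 CPM without Lyve1 under anti-Gr-1 (ratio 11.2, 7.00 to 19.0), and 337 and 35.7 CPM under isotype control (ratio 9.44, 6.45 to 14.2). Ednrb had 1628 and 350 CPM under anti-Gr-1, and 1796 and 413 CPM under isotype control. Cd38 had 144 and 20.5 CPM, then 120 and 31.1 CPM, and Fcna had 213 and 48.4 CPM, then 199 and 36.8 CPM. Among the 12 genes that were highest in members over other C1q cells, 5 were also among the 12 highest genes with Lyve1. They were Ednrb, Ltc4s, Cd38, Fcna and Rcn3. The other C1q cells have no Lyve1 UMI by the rule, so both comparisons share the members with Lyve1. The overlap is therefore no separate finding. Folr2, a gene of the rule, was higher too, at 1511 and 547 CPM under anti-Gr-1 and 1312 and 523 CPM under isotype control.

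Retnla, a secreted protein that macrophages make under interleukin-4, was higher with Lyve1 in each library. It had 7420 CPM with and 1996 CPM without Lyve1 under anti-Gr-1, and 4040 and 1065 CPM under isotype control. A few cells weigh on it, since 1 cell gave 30.4% of the anti-Gr-1 and 1 gave 20.1% of the isotype control UMIs. C1q genes were also somewhat higher with Lyve1: C1qa had 5415 and 3192 CPM under anti-Gr-1, and 4184 and 3151 CPM under isotype control. Mrc1 did not separate the cells, at 3052 and 3380 CPM, then 3380 and 2905 CPM.

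Of the chemokines, Ccl8, Ccl7, Cxcl2 and Cxcl1 were lower with Lyve1 in both libraries, and Ccl24, an attractant of eosinophils, was higher with it. Ccl24 had 612 CPM with and 169 CPM without Lyve1 under anti-Gr-1, and 587 and 304 CPM under isotype control. Ccl8, which attracts monocytes and T cells and is made by tissue macrophages, had 689 CPM with and 5819 CPM without Lyve1 under anti-Gr-1, and 1446 and 8704 CPM under isotype control. Ccl7 had 210 and 920 CPM, then 120 and 1039 CPM. Cxcl2 had 7.55 and 965 CPM, then 180 and 1519 CPM. Cxcl1, another attractant of neutrophils, had 0 and 57.7 CPM, then 1.62 and 120 CPM. Single cells gave 16 of its 31 UMIs under anti-Gr-1 and 50 of 105 under isotype control. The median log2 ratio of the 15 measured chemokines was -2.11 under anti-Gr-1 and -1.54 under isotype control, and that of the 15 measured interleukin-1 and NF-kB genes -1.69 and -1.22.

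Il10, an anti-inflammatory cytokine, had no UMI with Lyve1 in either library, against 22.3 CPM without it under anti-Gr-1 and 54.1 CPM under isotype control. Single cells gave 10 of its 12 UMIs under anti-Gr-1 and 16 of 47 under isotype control. Fgl2, a regulatory fibrinogen-like protein, had 71.8 and 503 CPM, then 61.5 and 329 CPM. The immediate early and heat shock genes, which also respond to tissue digestion, leaned the same way: their median log2 ratio with over without Lyve1 was -1.48 under anti-Gr-1 and -0.64 under isotype control over 18 genes. Their part in the chemokine difference was not tested. Fibroblast markers were also lower with Lyve1, by medians of -2.38 and -1.43 over 4 genes, and Col1a2, a collagen chain, had 11.3 and 125 CPM, then 4.85 and 61.0 CPM; the part of fibroblast RNA was not tested.

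Members with Timd4 UMIs, 37 under anti-Gr-1 and 61 under isotype control, were compared with those without, 69 and 145. At least 2-fold apart in both libraries were 19 genes higher and 36 lower with Timd4, counts given without their share of all measured genes. The groups differed in size from those by Lyve1, so these counts are not set against the ones there. The 19 were 8.88% of those past 2-fold higher under anti-Gr-1 and 13.9% of those under isotype control. The 36 were 9.92% and 25.2% of those lower. Lyve1 had 1524 CPM with and 302 CPM without Timd4 under anti-Gr-1, and 858 and 261 CPM under isotype control. Ltc4s had 378 and 104 CPM, then 248 and 113 CPM. Ccl8 had 879 and 4896 CPM, then 2055 and 7662 CPM, and Gdf15 had 2.32 and 112 CPM, then 53.5 and 243 CPM. MHC class II genes leaned the other way than with Lyve1, with medians of 0.30 under anti-Gr-1 and 0.81 under isotype control. The 2 measured markers of type 2 dendritic cells were higher with Timd4 too, with medians of 0.61 and 1.01. Dendritic cells with Cd209a had Timd4 in 19.1% and 21.6% of cells. Their part in the class II lean was not tested.

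**Figure D3:**
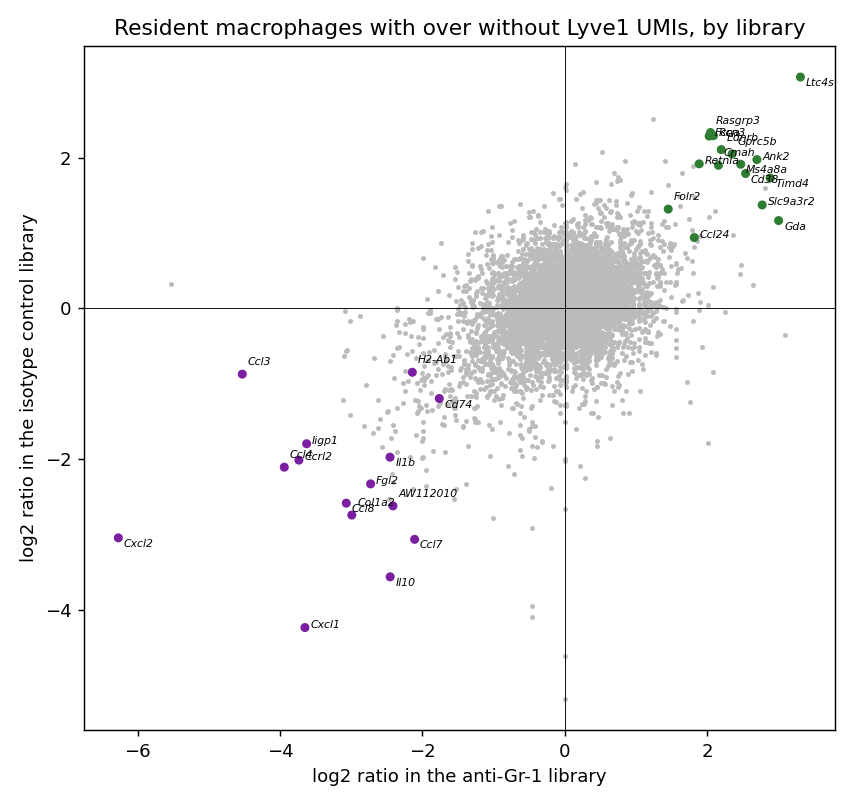
Log2 ratio of members with over members without Lyve1 UMIs for each measured gene (grey), in the anti-Gr-1 library on the x axis and the isotype control library on the y axis, with a pseudocount of 5 CPM. Named genes past 2-fold on average are coloured green where higher and purple where lower with Lyve1; Ltc4s, at 3.31 and 3.07, is at the upper right and Cxcl2, at -6.27 and -3.05, at the lower left. Lyve1 itself is left out.

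MHC class II was low in most members and high in a few. H2-Aa, H2-Ab1, H2-Eb1 and Cd74, which encode the class II chains and their chaperone, made up a median of 0.0857% of the UMIs of an anti-Gr-1 member and 0.185% of an isotype control member. T cells had medians of 0.0550% and 0.131%, taken as the level that free RNA gives. Other C1q cells had medians of 1.62% and 2.31%, and Cd209a dendritic cells 5.53% and 5.48%. At least 1% of UMIs came from these genes in 14 of 106 anti-Gr-1 members (13.2%, 7.41 to 21.2) and 36 of 206 isotype control members (17.5%, 12.6 to 23.4). In T cells the same held for 0.778% of anti-Gr-1 cells and 14.0% of isotype control cells.

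The few members with much MHC class II mostly lacked Lyve1. Shares at or above 1% were seen in 3 of 49 anti-Gr-1 members with Lyve1 and 11 of 57 without it, and in 4 of 87 and 32 of 119 isotype control members. As shares these are 6.12% and 19.3% under anti-Gr-1, and 4.6% and 26.9% under isotype control. Members were also ranked by their MHC class II share into 3 groups of like size. Ccr2 had 215 CPM in the upper and 41.1 CPM in the lower group under anti-Gr-1, and 383 and 150 CPM under isotype control. Plbd1, a phospholipase-like protein of phagocytes, had 105 and 8.22 CPM, then 231 and 12.6 CPM. Ednrb ran the other way, at 300 and 1588 CPM, then 347 and 1772 CPM. Members with Cd209a UMIs, the marker of type 2 dendritic cells, numbered 14 under anti-Gr-1 and 52 under isotype control; the part of such cells or of doublets in the class II signal was not tested.

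**Figure D4:**
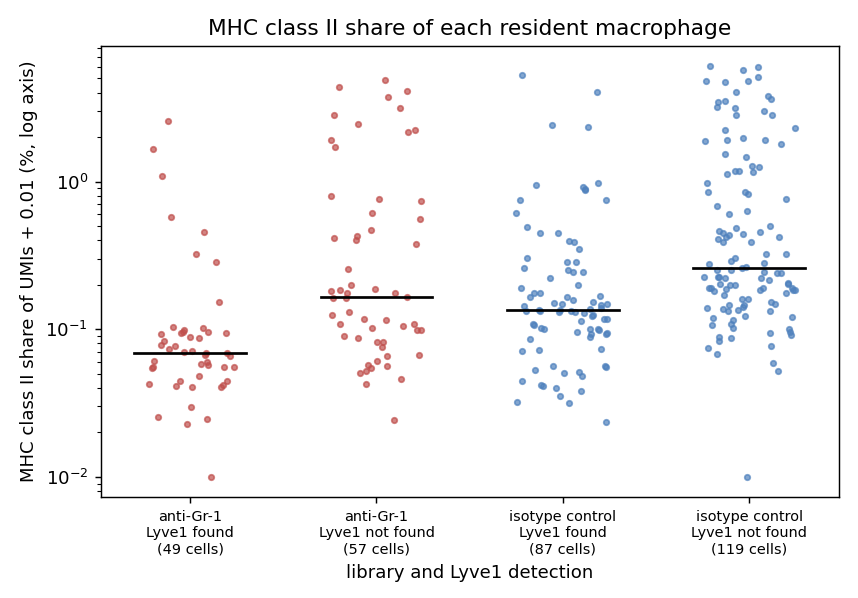
MHC class II share of the UMIs of each member (4 genes, plus 0.01%, log axis) by library and by whether Lyve1 UMIs were found; red is anti-Gr-1, blue is isotype control, each point is 1 cell and the bar is the median. Cells at or above 1% were 3 of 49 and 11 of 57 under anti-Gr-1, and 4 of 87 and 32 of 119 under isotype control.

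Between treatments, the members' identity genes were close. Over all members, monocyte, interleukin-1 and MHC class II genes were lower under anti-Gr-1. The class II difference did not hold in male cells or without members with Cd209a, Cpa3 or Cd207 UMIs, and the monocyte difference was small in female cells. UMIs were summed over the members of each library, 1066508 under anti-Gr-1 and 1487285 under isotype control. Of 6144 genes with at least 20 CPM in 1 library, 147 (2.39%) were at least 1.5-fold higher under anti-Gr-1 and 490 (7.98%) at least 1.5-fold lower, on the log2(CPM + 5) scale. The median over all of them was -0.08. With 1 library each, the treatment and the pool of mice cannot be told apart.

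Of the 26 measured identity genes, 20 were higher and 6 lower, with 3 past 1.5-fold higher, 1 past it lower and a median of 0.16. Ednrb had 985 CPM under anti-Gr-1 and 988 CPM under isotype control (ratio 0.997, 0.920 to 1.08). Pf4, platelet factor 4, had 4545 and 4518 CPM (ratio 1.01, 0.969 to 1.04). Stab1 had 700 and 485 CPM (ratio 1.44, 1.3 to 1.60). Of the rule's own genes, whose level the choice shapes, Lyve1 had 796 and 471 CPM, Cd209f 368 and 243 CPM, and Timd4 93.8 and 79.3 CPM. Lysosomal genes were even closer, with none of 22 past 1.5-fold either way and a median of 0.01, and none of 10 complement genes was past it (median 0.02).

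Retnla was among the 3 identity genes past 1.5-fold higher, with Cd209g and Siglec1. It had 4689 CPM under anti-Gr-1 and 2302 CPM under isotype control, but was found in fewer anti-Gr-1 members, 39 of 106 against 102 of 206. Its log2 ratio was -2.12 in female and 2.12 in male cells. Siglec1, the sialic acid receptor CD169, had 24.4 and 10.8 CPM, and Cd209g had 128 and 78.0 CPM. Cd209d, another lectin of the family, was past 1.5-fold lower, at 164 and 258 CPM.

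Genes of recruited monocytes were lower, 8 of 11 measured past 1.5-fold and none past it higher, with a median of -0.95. The median was -0.20 in female cells, over 7 measured genes, -0.42 after thinning and -0.49 without cells with both Xist and Y-linked UMIs. Ccr2 had 104 CPM under anti-Gr-1 and 206 CPM under isotype control (ratio 0.504, 0.402 to 0.628), but T cells had 212 and 251 CPM. Fn1, fibronectin, had 69.4 and 167 CPM (ratio 0.416, 0.317 to 0.541), against 7.76 and 34.8 CPM in T cells, with 48.6% of the anti-Gr-1 Fn1 UMIs in 1 cell. Thbs1, thrombospondin 1, had 0 UMIs in anti-Gr-1 members and 121 in isotype control members, in 12 cells. The upper end of the ratio interval was 0.0432, and 58 of the 121 UMIs were in 1 cell. Without that cell there were 63 UMIs, with an upper end of 0.0835. The defining monocyte markers Ly6c2 and Vcan were at 0 in anti-Gr-1 members and had 28 and 46 UMIs in isotype control members, in 6 cells each. A single cell held 67.9% of the 28 Ly6c2 UMIs, and 37 of the 46 Vcan UMIs were in 1 cell, which left 9. All 5 monocyte markers summed to 105 CPM under anti-Gr-1 and 286 CPM under isotype control. Lyz2, lysozyme of all phagocytes, and Itga4, an integrin chain, were the 2 measured genes of the list with higher values under anti-Gr-1, Lyz2 at 4248 and 3180 CPM (ratio 1.34, 1.28 to 1.39).

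All 7 measured MHC class II genes were lower under anti-Gr-1, 6 of them past 1.5-fold, with a median of -0.80. Cd74 had 2747 CPM under anti-Gr-1 and 4785 CPM under isotype control (ratio 0.574, 0.550 to 0.599), against 499 and 1558 CPM in T cells. The median was -1.48 among female cells but 0.03 among male cells. It was 0.12 without members that had UMIs of Cd209a, Cpa3 or Cd207, markers of dendritic, mast and Langerhans cells. That step left 83 of 106 anti-Gr-1 and 129 of 206 isotype control members. T cells also had Cpa3, at 104 and 135 CPM, so a member with its UMIs may hold free RNA only. The class II difference thus did not hold in males or without the members so left out.

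Of 14 measured interleukin-1 and NF-kB genes, 9 were past 1.5-fold lower and none past it higher, with a median of -0.72. Without members with Cd209a, Cpa3 or Cd207 UMIs the median was -0.35 over 13 genes, 10 of them lower and 3 higher. Il1b had 66.6 CPM under anti-Gr-1 and 303 CPM under isotype control (ratio 0.220, 0.169 to 0.283). T cells, which are not a known source of Il1b, had 38.2 and 165 CPM, lower under anti-Gr-1 as well. The part of free RNA in the members' level was not tested. Il1rn, the interleukin-1 receptor antagonist, had 25.3 and 53.1 CPM, with log2 ratios of 0.88 in female and -1.93 in male cells. Il1r2, the decoy receptor, had 1 UMI under anti-Gr-1 and 23 under isotype control. Tnip3, an inhibitor of NF-kB signalling, had 21.6 and 98.8 CPM (ratio 0.218, 0.134 to 0.340), but the log2 ratio was 0.02 without members with Cd209a, Cpa3 or Cd207 UMIs. Only 4 of the 14 genes stood at 3 times the T cell level or more in a library; 3 of these were past 1.5-fold lower.

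Ccl8 was lower under anti-Gr-1, at 3272 CPM against 5688 CPM (ratio 0.575, 0.553 to 0.598), far above T cells at 2.0 and 16 CPM. The log2 ratio was -0.91 in female and -1.31 in male cells. It was also lower within members with Lyve1, at 689 against 1446 CPM, and within those without, at 5819 against 8704 CPM. As a group the 15 measured chemokines were mixed, with 3 past 1.5-fold higher, 5 past it lower and a median of -0.11. Cxcl9, an interferon-gamma target, had 1 UMI under anti-Gr-1 and 101 under isotype control, 45 of them in 1 cell.

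Tfrc had 173 CPM under anti-Gr-1 and 428 CPM under isotype control (ratio 0.403, 0.340 to 0.475), with log2 ratios of -2.00 in female and -1.02 in male cells and T cells at 42.7 and 67.7 CPM. It was the 1 of 15 iron genes past 1.5-fold; Hmox1, which breaks down haem, had 574 and 832 CPM (ratio 0.689, 0.625 to 0.760). Mt1 and Mt2, metal-binding metallothioneins, were lower as well, at 1306 and 2226 CPM (ratio 0.587, 0.551 to 0.625) and 91.9 and 190 CPM (ratio 0.483, 0.380 to 0.610).

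Fkbp5, a co-chaperone and a sensitive target of glucocorticoid hormone, was the highest of the named genes. It had 59.1 CPM under anti-Gr-1 and 18.2 CPM under isotype control (ratio 3.25, 2.04 to 5.31), in 33 and 26 cells. Fkbp5 was higher in female and in male cells, which the choice of the 12 highest genes required. T cells differed less, with 58.4 and 46.1 CPM. The glucocorticoid list did not follow: 1 of 10 measured genes was past 1.5-fold higher and 5 past it lower. Tsc22d3, another such target, had 406 and 303 CPM (ratio 1.34, 1.17 to 1.53).

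Dusp6, a phosphatase that dampens ERK signalling, was higher under anti-Gr-1, at 120 and 57.8 CPM (ratio 2.08, 1.57 to 2.76). Klf2, a transcription factor that restrains inflammatory genes, had 1307 and 862 CPM (ratio 1.52, 1.40 to 1.64). Trem2, a lipid-sensing receptor, had 80.6 and 50.4 CPM (ratio 1.60, 1.16 to 2.21). AY036118 was higher in members, at 1094 and 440 CPM, and in T cells, at 1637 and 652 CPM. Col1a1, a collagen chain, had 64.7 and 29.6 CPM, and the 4 fibroblast markers together 171 and 104 CPM; the part of fibroblast RNA was not tested. Rcn3, Slc37a2, Itfg1, Hist3h2a, Vps26c, Zfp622 and Cmip were also among the 12 highest, at ratios of 1.71 to 1.88.

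Several of the lowest genes rested on single cells. Saa3, an acute-phase protein, had 0 UMIs under anti-Gr-1 and 206 under isotype control, of which 203 came from 1 cell. The mast cell protease genes Mcpt4, Cpa3 and Cma1 had 16.9, 8.44 and 20.6 CPM under anti-Gr-1, against 284, 157 and 196 CPM under isotype control, and 1 isotype control cell gave 45.9% to 51.7% of each. All 5 mast cell markers summed to 53.4 and 684 CPM in members, with 535 and 645 CPM in T cells. Nr4a2, an immediate early transcription factor, had 7.50 and 67.2 CPM, Malt1, a signalling protease of lymphocytes and myeloid cells, 26.3 and 121 CPM, and Cytip, an adaptor of white blood cells, 25.3 and 90.1 CPM, all below their levels in T cells. Ear2, a ribonuclease, had 20.6 and 103 CPM, and Mucl1 stayed near 0 in both libraries, at 1.88 and 4.71 CPM.

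**Figure D5:**
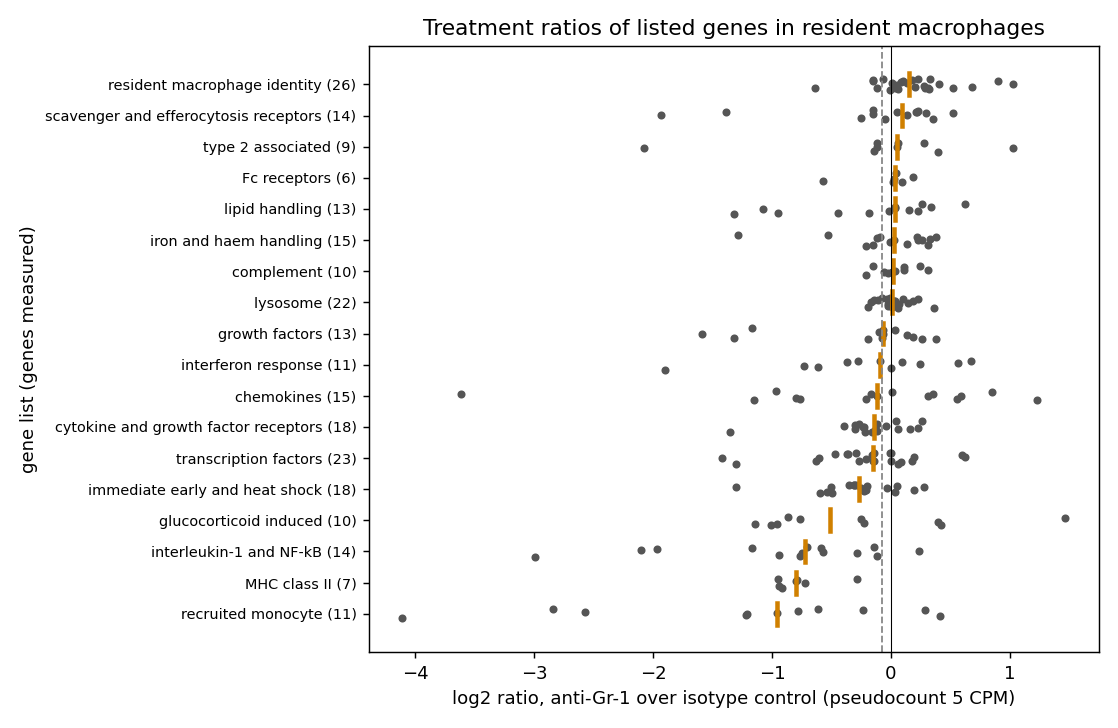
Log2 ratio of anti-Gr-1 over isotype control members for each measured gene (points) of 18 lists, with the list median as an orange bar and the median over all 6144 genes (-0.08) as a dashed line. Identity, lysosome and complement genes lie near 0 (medians 0.16, 0.01 and 0.02), and recruited monocyte, MHC class II and interleukin-1 genes lie lower (medians -0.95, -0.80 and -0.72). The class II median was 0.03 in male cells and 0.12 without members with Cd209a, Cpa3 or Cd207 UMIs. The monocyte median was -0.20 in female cells.

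The remaining lists had medians between -0.27, for immediate early and heat shock genes, and 0.10, for the scavenger and efferocytosis receptor list. Of the immediate early genes in that list, which does not hold Nr4a2, Nr4a1 was the lowest, at 91.0 CPM under anti-Gr-1 and 232 CPM under isotype control. Fos was higher, at 3642 and 3001 CPM. Among growth factors, Osm, oncostatin M, had 14.1 and 52.4 CPM and Gdf15, a stress-induced hormone, 67.5 and 176 CPM, while Igf1, an insulin-like growth factor, had 895 and 937 CPM (ratio 0.954, 0.878 to 1.04). Of 6 Fc receptor genes none was past 1.5-fold, and Fcgrt, the neonatal Fc receptor, had 960 and 941 CPM. Of 11 interferon response genes, 1 was past 1.5-fold higher and 3 past it lower; Rsad2 had 8.44 and 45.0 CPM and Xaf1 39.4 and 22.9 CPM. Of 18 receptors for cytokines and growth factors, Il17ra alone was past 1.5-fold, at 7.50 and 26.9 CPM, below its level in T cells.

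The libraries differed in depth and makeup in ways that touch these values. Members had median depths of 9702 UMIs under anti-Gr-1 and 6594 under isotype control. UMIs of both sexes, a sign of 2 cells in 1 droplet or of free RNA, were found in 1 of 106 and 17 of 206 members, and 1 and 11 members were scored as doublets. Female cells were 25 and 64 members and male cells 55 and 77. The libraries shared 61 cell barcodes, none of them members.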

How the data were processed

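Gene-by-barcode UMI counts of 2 libraries of live CD45+ neonatal skin cells were used as the authors deposited them, as filtered matrices of 32285 genes. The file headers name Cell Ranger 4.0.0 and the submitters' processing notes mm10; the chemistry is a 3′ v2 protocol, per the labels. Filters of at least 200 genes and under 10% mitochondrial UMIs left 8047 of 9110 anti-Gr-1 and 19542 of 21311 isotype control barcodes.

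UMIs were summed over the members of a library and given as CPM. Ratios on the log2 scale used a pseudocount of 5 CPM, over genes with at least 20 CPM in 1 compared set. With 1 library a treatment no test was run, and fixed folds of 1.5 between treatments and 2 between cell sets were used. Intervals are exact (Clopper-Pearson for shares, Poisson-based for ratios, 95%). PCR and droplet effects are outside them.

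The named genes were the 12 highest and 12 lowest in each comparison with at least 50 CPM in 1 set. Between treatments they also needed 50 UMIs and the same direction with equal weight per cell and in both sexes. Listed genes with large ratios or levels were added. Some of the genes so chosen are not reported here. T cells had at least 3 Cd3 UMIs and no UMI of macrophage genes such as Csf1r and Cd68. Dendritic cells had at least 2 Cd209a UMIs, a C1q share under 0.1%, no Cd3 UMI and fewer than 3 cell cycle UMIs. Doublets were scored with scrublet in scanpy 1.11.5 and kept, since removal was an alternative; in the isotype control library the automatic threshold marked 32.8%, so the highest scores at 0.8% per 1000 barcodes (15.6%) were used, against 5.88% in the anti-Gr-1 library. The calculations were checked on simulated data.

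The members and gene lists were chosen with earlier results of these data known. The grouping by Lyve1 and by 1% MHC class II, the removal of top cells and of members with Cd209a, Cpa3 or Cd207 UMIs, the counts with Cd3 or cycling cells and a minimum depth for the comparison with other C1q cells were chosen after seeing the data. Python 3.11.15, numpy 2.4.6, scipy 1.17.1 and pandas 2.3.3 were used.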

Additional observations from a re-analysis of the deposited data

Results flagged for a closer look

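The log2 ratio of anti-Gr-1 over isotype control members had opposite signs in female and male cells, past 1.5-fold in both, for 5 named genes. The difference between the sexes was not tested, and it rests on 25 anti-Gr-1 and 64 isotype control female cells and on 55 and 77 male cells. Retnla was at -2.12 in female and 2.12 in male cells. Among chemokines, Ccl3 was at 1.11 and -1.27, Ccl4 at 2.73 and -1.78, and Cxcl10 at 1.66 and -2.35. Single anti-Gr-1 members gave 53 of the 157 Ccl3 UMIs and 111 of the 353 Ccl4 UMIs of that library. For Cxcl10, 1 anti-Gr-1 member gave 92 UMIs and all the others together 78. The weight of these cells in the opposite signs was not tested. Klf9, a transcription factor induced by glucocorticoids, was at 0.95 in female and -0.73 in male cells.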

How the results depend on the processing

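No paired analysis was possible because each treatment had 1 library. The ratio of the members' shares, 1.25, was 1.72 in female cells, 0.920 in male cells and 0.976 after thinning. The 147 genes higher and 490 lower between treatments became 37 and 187 at 50 CPM, 241 and 764 at 20 UMIs, 727 and 1359 after thinning, 883 and 1218 in female cells and 363 and 878 in male cells; without members with Cd209a, Cpa3 or Cd207 UMIs, 230 were higher. The 156 genes higher and 136 lower than in other C1q cells became 252 and 228 after thinning. The MHC class II median turned to 0.028 in male cells and 0.12 without members with those 3 markers. The chemokine median turned to 0.087 in female cells and 0.023 without them, and the immediate early and heat shock median to 0.21 in female cells. Tnip3 turned to 0.023 without them and Il1rn to 0.88 in female cells. The cause was not tested. Depth limits genes near 20 CPM.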
